A study of Mus musculus with 14 samples.

Results

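Potassium channel genes were examined in RNA sequencing of mouse cortex. Their symbols begin with Kcn, followed by the letters of a subfamily and a number. Of 34193 gene symbols in the deposited table, 93 have such a name. The 78 examined here were selected on a summed count of 100 or more over all 14 animals, and the other 15 had fewer reads, 5 of them none. The genes just inside that limit were Kcnmb1, Kcnk5 and Kcnj14, with 113, 135 and 150 reads in all, and those just outside it were Kcnh8, Kcna10 and Kcne3, with 62, 17 and 16. Selection used the sum over both genotypes, so the levels are a description, whereas no contrast between animals entered it. Of the 78 genes, 76 had enough reads to be tested, and Kcnmb1 and Kcnk5 did not.

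The study compared mice that lack 1 working copy of Dnmt3a, the gene of a DNA methyltransferase, with wild-type mice. All animals were C57BL/6J, 8 weeks old, and the labels call the wild types littermates. The groups are 7 wild-type animals (genotype "wild type") and 7 heterozygous knockouts ("Heterozygous KO"), each with 4 females and 3 males. No promoter, Cre driver or treatment is named in the labels for either group. Each sample title opens with a 3-digit prefix, whose meaning the labels do not give. Prefixes 046, 048 and 119 are male and 047, 139 and 141 are female, and each holds 1 animal of each genotype, except 141, which holds 2 of each. Replicates here are separate animals.

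Potassium channels let potassium ions leave or enter a cell down their electrochemical gradient. In neurons, the voltage-gated families open on depolarisation, end the action potential and set firing rate, and auxiliary subunits alter their gating and placement in the membrane. Two-pore-domain channels carry leak currents that hold the resting potential, calcium-activated and sodium-activated channels act after spikes, and inward rectifiers stabilise negative potentials. In astrocytes, inward rectifiers take up the potassium that active neurons release. Dnmt3a adds methyl groups to cytosines, in neurons also outside the CG context.

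Total counts lay between 8951835 and 14335406 per animal, and the 78 genes held 0.675% of all counts. The targeted gene followed its label: Dnmt3a lay between 124 and 164 CPM in wild-type animals and between 84.3 and 118 CPM in heterozygotes, without overlap (CPM is a count scaled to the depth of its library by edgeR, with TMM factors). By edgeR's quasi-likelihood test the log2 fold change was -0.57, with an SE of 0.0752 and an adjusted p of 0.00774. The 6 animals of prefixes 119 and 141 stood apart from the other 8 in earlier results of these data. Mitochondrial transcripts took 1.11 to 1.99% of their counts, against 0.571 to 0.860% in the other prefixes. The summed level of 16 astrocyte markers was 13610 to 19550 CPM there, against 10310 to 11820 CPM. Neither range overlaps with that of the other animals. Every astrocyte marker had reads in the table. Results are therefore given with and without these animals.

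Levels per kilobase of exon (RPKM, which is CPM divided by exon length) ran from 95.4 ± 13.4 for Kcna1 (SD, n = 14) down to 0.166 ± 0.0670 for Kcnmb1. The voltage-gated class was the largest, with 36 genes that held 61.3% of the counts of the 78. It was followed by 13 inward rectifiers with 14.8%, 12 auxiliary subunits with 12.8% and 10 two-pore-domain genes with 4.46%. The 4 calcium-activated and 2 sodium-activated genes held 4.19% and 2.43%. Kcnu1, a pH-sensitive channel known from sperm, was at 0.496 ± 0.12 RPKM.

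Among Kv1 genes, Kcna1 was followed by Kcna6 at 28.9 ± 4.03 RPKM and Kcna2 at 15.9 ± 2.14 RPKM (SD, n = 14 for each level in this and the next paragraphs). Kv1 channels sit at axon initial segments and beside nodes and set spike threshold. Kcnab2, which encodes a cytoplasmic beta subunit of Kv1 channels, was at 81.7 ± 4.61 RPKM, above Kcnab3 (13.5 ± 2.60) and Kcnab1 (11.1 ± 1.52). The delayed rectifier Kcnb2 had 2.77 ± 0.445 RPKM.

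Kv3 channels allow fast spiking. Of their genes, Kcnc1 (30.2 ± 5.32 RPKM) and Kcnc4 (30.1 ± 3.63) did not differ beyond their spread, and Kcnc2 had 24.7 ± 3.00. Kcnd2, the A-type channel of dendrites, had 28.4 ± 3.73 RPKM, Kcnd3 had 11.7 ± 1.16 and Kcnd1 had 1.22 ± 0.166. Kcnip3, a calcium-binding subunit of these Kv4 channels, had the highest level of its subfamily with 34.2 ± 2.36. The silent subunits, which form no channel alone but modify Kv2, ranged from Kcnf1 (43.9 ± 5.97) and Kcnv1 (39.1 ± 3.71) to Kcns1 (8.94 ± 1.62), Kcng1 (5.77 ± 1.14) and Kcng2 (0.951 ± 0.343).

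Of the Kv7 genes, which carry the M-current, Kcnq5 had 22.2 ± 2.94 RPKM and Kcnq3 had 6.497 ± 0.873. Kcnq1 had 0.253 ± 0.106, and reads of an antisense transcript at that locus could be mixed in, since the sources used here do not say whether counting used strand. Kcnh3 led its subfamily with 37.7 ± 3.34, before Kcnh5 (27.4 ± 4.07) and Kcnh1 (25.2 ± 3.84), both of the EAG branch. Kcnma1, the BK channel, was at 12.6 ± 1.30, and its neuronal beta subunit Kcnmb4 at 17.0 ± 1.46. The SK channel Kcnn2 had 4.92 ± 0.650, while the sodium-activated Kcnt2 and Kcnt1 had 10.9 ± 1.85 and 9.39 ± 1.12.

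Taken as the ratio of the highest to the lowest level, the inward rectifiers covered the widest range of any subfamily. Kcnj4, a strong rectifier of forebrain neurons, had 79.4 ± 18.4 RPKM and Kcnj10, the Kir4.1 channel of astrocytes, had 62.8 ± 15.6. Their spread overlapped. Kcnj16, which joins Kcnj10 in glial channels, had 9.72 ± 3.26, and Kcnj6, a G-protein-gated subunit, 9.82 ± 0.830. Kcnj5 was lowest with 0.246 ± 0.0940. In the leak class Kcnk1 led with 41.6 ± 3.20 and Kcnk2, a mechanically and thermally gated channel, had 16.5 ± 1.30. Kcne1l, a single-span subunit, led the Kcne genes with 1.77 ± 0.403.

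**Figure D1:**
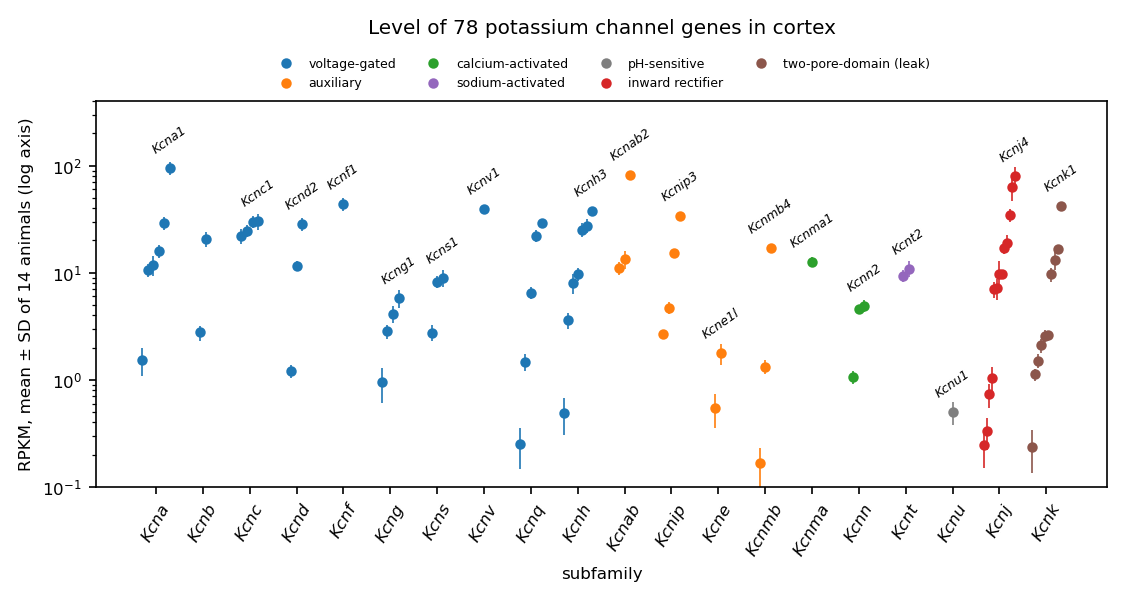
Mean level of each of the 78 genes by subfamily, in RPKM on a log axis, with bars for the SD over 14 animals and colour for the class; the highest gene of most subfamilies is named. Kcna1 (95.4 RPKM), Kcnab2 (81.7) and Kcnj4 (79.4) are the highest points, and 4 genes of separate subfamilies lie under 0.3 RPKM.

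None of the 76 genes differed by genotype over all 14 animals. Among all 13815 genes tested, 2 passed an adjusted p of 0.05 by edgeR's quasi-likelihood test with sex as a term, which is 0.0145% of them. At an unadjusted p under 0.05 there were 2 of the 76 genes, Kcnj8 and Kcnt2, or 2.63%, against 552 genes or 4% of all tested. DESeq2 also called 0 of the 76. No gene had wild-type and heterozygous ranges that did not overlap, which 0.123% of all genes had. Every 1 of the 76 had an adjusted p of at least 0.978 by edgeR.

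Of the 76 log2 fold changes, 45 were positive, with a median of 0.040, and the median of all genes was 0.0024. The voltage-gated class had 24 of 36 positive and a median of 0.068. The inward rectifiers had 5 of 13 positive and a median of -0.15, auxiliary subunits 6 of 11 and 0.023, and two-pore-domain genes 6 of 9 and 0.027. Of the negative inward rectifiers, Kcnj14, Kcnj13, Kcnj5 and Kcnj8 had few reads, with 150, 154, 196 and 446 in all. The other negative ones had 6368 (Kcnj16) or more, and the 5 positive ones 3215 (Kcnj12) to 24932 (Kcnj9). These medians are descriptions, since no gene in any class passed the test.

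The smallest p values by genotype were those of Kcnj8, Kcnt2, Kcnk2, Kcnn3 and Kcnj2 downward and of Kcnk10, Kcna6, Kcnd2, Kcns3 and Kcnk4 upward. Kcnj8, the Kir6.1 pore of ATP-sensitive channels in vascular mural cells, had a lowest, median and highest level of 2.28, 3.17 and 4.49 CPM in wild-type animals and of 1.77, 2.24 and 2.85 CPM in heterozygotes. The ranges overlapped, and the log2 fold change was -0.43 (SE 0.174). Kcnt2, a sodium-activated channel, had 69.98, 74.7 and 108 CPM in wild-type animals and 57.3, 72.6 and 85.9 CPM in heterozygotes. Its medians were close, and its log2 fold change was -0.20 (SE 0.0942). Kcnj2, a strong inward rectifier, had 29.0, 40.5 and 56.6 CPM against 30.7, 34.7 and 50.9 CPM, with -0.20 (SE 0.115). Kcnk2 was at -0.11 and Kcnn3, an SK channel, at -0.18, both with overlapping ranges.

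Upward, Kcna6, a Kv1 subunit, had 131, 166 and 193 CPM in wild-type animals and 155, 182 and 208 CPM in heterozygotes. Its log2 fold change was 0.19 (SE 0.0938). Kcnd2 had 107, 141 and 159 CPM against 136, 156 and 177 CPM, with 0.17 (SE 0.0896). In both genes the heterozygotes covered the upper part of a shared range. Kcnk10 and Kcnk4, mechanosensitive leak channels, had 0.20 and 0.18, and the silent subunit Kcns3 had 0.22, with at most 12.2, 13.7 and 11.4 CPM in any animal.

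Animals of the same title prefix deviated together from the means of their genotypes (pairs of unlike prefix were not compared). A second fit therefore took the prefix, not sex, as a block. It called 56 of all genes (0.405%) and 0 of the 76. Its smallest adjusted p values by edgeR were 0.0823 for Kcnj16 (log2 fold change -0.27) and 0.0997 for Kcna6 (0.20). At an unadjusted p under 0.05 it gave 16 of the 76, or 21.1%, against 12.9% of all genes, with 10 higher and 6 lower in heterozygotes. All 6 voltage-gated genes among these were higher: Kcna6, Kcnh1, Kcnd2, Kcnb2, Kcns3 and Kcnq5. The inward rectifiers went both ways: Kcnj16, Kcnj8, Kcnj2 and Kcnj10 were lower, and Kcnj11 and Kcnj9 were higher (0.14 for each). In the authors' deposited table of genotype differences 27 genes (0.191%) had an adjusted p under 0.05, and none of the 78. The smallest adjusted p among the 78 genes in the authors' deposited table was 0.135, for Kcna6.

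The genotype change was not shown to differ between the sexes. The interaction of genotype and sex passed for 0 of all genes (0%) by edgeR and for 0 by DESeq2. At an unadjusted p under 0.05 it gave 1.04% of all genes and 0 of the 76. The median log2 fold change of the 76 was 0.035 in females and 0.042 in males.

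The channel genes differed between title prefixes. Of the 76, 39 passed a joint test of the 6 prefixes by edgeR, or 51.3%, against 4591 genes or 33.2% of all tested. Sex is constant within a prefix, so this test includes differences between the sexes. In 35 of the 39 the level was lower in prefixes 119 and 141 than in the others, which is 46.1% of the 76 against 17.2% of all genes. In 4 it was higher, or 5.26% against 16.1%: Kcnj16, Kcnj10, Kcnt2 and Kcnn2. Lower and higher go by the sign of the difference of 119 and 141 from the rest, which did not itself have to pass. Kcnj2 is thus counted as lower at -0.055, where that difference had an adjusted p of 0.769 by edgeR. In 37 of the 39 the difference had the same sign in females (141 against 047 and 139) and in males (119 against 046 and 048), and the exceptions were Kcnip2 and Kcnj2. Over all genes that passed, 91.1% had the same sign in both.

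By class, 23 of 36 voltage-gated genes passed and all 23 were lower in prefixes 119 and 141. The median log2 difference of this class was -0.27, and that of all genes was -0.0013. Kcnc1, Kcnc2 and Kcnc4 of the Kv3 family, Kcnb2, and 4 of 6 Kv1 genes were among them. Of 13 inward rectifiers 6 were lower and 2 higher, of 9 two-pore-domain genes 3 were lower, and of 11 auxiliary subunits 2 were lower, Kcnab3 and Kcnip2. Prefixes 119 and 141 did not overlap with the other animals for 13 of the 76 genes, or 17.1%, against 12.1% of all genes. Of the 13, 12 were lower and Kcnmb4 was higher.

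**Figure D2:**
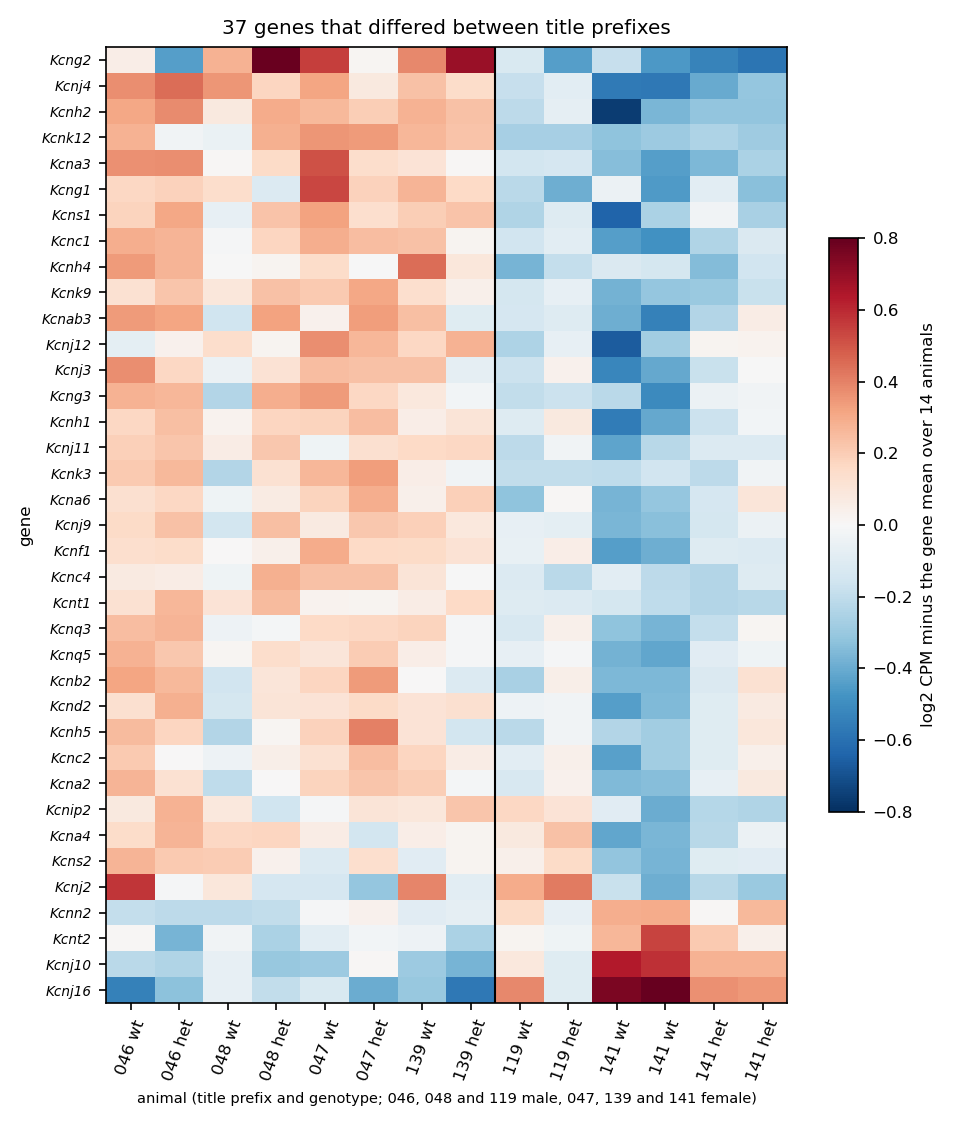
Log2 CPM minus the mean of each gene over 14 animals, for 37 of the 39 genes that differed between title prefixes, one column per animal, with a line before the 6 animals of prefixes 119 and 141; colours end at 0.8 in either direction. Most rows turn from red to blue at the line, while Kcnn2, Kcnt2, Kcnj10 and Kcnj16 at the bottom turn from blue to red.

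Kcnj16 and Kcnj10, which form the potassium uptake channels of astrocytes, stood at the upper end. Kcnj16 had a lowest, median and highest level of 24.4, 29.2 and 34.8 CPM in the 8 animals of the other prefixes. In prefixes 119 and 141 its 6 animals had 34.0, 47.3 and 63.4 CPM, and only the lowest of them lay within the range of the others. Its log2 difference was 0.72 (SE 0.0974, adjusted p between prefixes = 8.31e-07 by edgeR), with 0.93 in females and 0.44 in males. Kcnj10 had 256, 276 and 333.5 CPM in the other prefixes and 309.5, 402 and 515 CPM in 119 and 141. Again 1 of the 6 animals lay within the range of the others. The log2 difference was 0.49 (SE 0.0866, adjusted p between prefixes = 1e-05 by edgeR). Kcnt2 and Kcnn2 had log2 differences of 0.29 and 0.25 (adjusted p between prefixes = 0.00153 and 0.00374 by edgeR).

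Among the genes that were lower, Kcnj4 had the smallest p. It had 176, 202 and 226 CPM in the other prefixes and 112, 130.1 and 157 CPM in 119 and 141, without overlap. Its log2 difference was -0.58 (SE 0.0615, adjusted p between prefixes = 1.4e-06 by edgeR). Kcnh2, the ERG1 channel, had 40.2, 45.9 and 49.6 CPM against 22.5, 30.6 and 36.2 CPM. Its log2 difference was -0.57 (SE 0.0690, adjusted p between prefixes = 8.31e-06 by edgeR). The Kv3 channel Kcnc1, known from fast-spiking interneurons, had 279.8, 333 and 344.5 CPM against 201, 245 and 265 CPM, with -0.43. The Kv1 subunit Kcna3 was at -0.48 and Kcnk12, a two-pore-domain gene, at -0.51. None of these 5 overlapped between the 2 sets of animals. The silent subunit Kcng2, a gene of low level, had the largest difference of those that passed, -0.78 (adjusted p between prefixes = 0.00651 by edgeR).

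Markers of cell types moved with the same prefixes. Of 16 astrocyte markers 14 passed between prefixes, all higher in 119 and 141, where their summed level did not overlap with the rest. The summed level of 9 parvalbumin interneuron markers was 404 to 545 CPM in prefixes 119 and 141 and 565 to 662 CPM in the others. These 9 did not move as one. Of the 5 that passed, Gad1 (-0.33), Slc32a1 (-0.65) and 2 others were lower. Pvalb itself was higher (0.26, adjusted p between prefixes = 0.0402 by edgeR). Gad1 and Slc32a1 mark GABA neurons in general, and Gad1 alone had 191 to 335 CPM over all animals. The summed level of 10 deep-layer neuron markers was 636 to 783.5 against 782.5 to 874.5 CPM. That of 15 immediate early genes was 667 to 1459 against 1271 to 2132 CPM, and both overlapped. Of these lists 7 and 14 genes passed, all lower. Of 14 oligodendrocyte markers 2 passed as lower and 5 as higher, and of 11 microglia markers 3 as higher. Of 12 endothelial and pericyte markers 1 was lower and 2 higher, and of 7 upper-layer markers 2 were lower and 1 higher. Of 10 striatal and 8 oligodendrocyte precursor markers 1 each was lower, where 33.2% of all genes passed. The part of these lists in the differences of the channel genes was not tested. In bulk cortex, fewer cells of a type and less RNA per cell cannot be told apart. Within the 8 animals of the other prefixes alone, 0 of the channel genes differed between prefixes, and 87 of all genes did.

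The promoters of Kcnj10, Kcnj16, Kcnj4 and Kcna6 are shown because Kcnj16 and Kcnj10 had the smallest p between prefixes of the higher genes and Kcnj4 of the lower ones, because Kcnj16 and Kcna6 had the smallest p by genotype with the prefix as a block, and because Dnmt3a acts on cytosines. They are RefSeq sequences on GRCm38.p6, from 250 bases before to 50 after the start of the gene, 5′ to 3′ on the strand of the gene, with each CG in capitals. CG reads the same on both strands. The Kcnj10 window is at chr1:172340960-172341259, plus strand, that of Kcnj16 at chr11:110967783-110968082, plus strand (the most upstream of 4 listed starts), that of Kcnj4 at chr15:79505192-79505491, minus strand, and that of Kcna6 at chr6:126740625-126740924, minus strand.
Kcnj10: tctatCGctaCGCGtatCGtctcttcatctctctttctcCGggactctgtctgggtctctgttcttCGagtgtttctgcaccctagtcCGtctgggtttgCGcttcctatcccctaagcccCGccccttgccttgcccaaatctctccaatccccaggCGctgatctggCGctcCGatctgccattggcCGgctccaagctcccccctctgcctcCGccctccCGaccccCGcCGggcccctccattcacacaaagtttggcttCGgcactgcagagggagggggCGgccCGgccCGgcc
Kcnj16: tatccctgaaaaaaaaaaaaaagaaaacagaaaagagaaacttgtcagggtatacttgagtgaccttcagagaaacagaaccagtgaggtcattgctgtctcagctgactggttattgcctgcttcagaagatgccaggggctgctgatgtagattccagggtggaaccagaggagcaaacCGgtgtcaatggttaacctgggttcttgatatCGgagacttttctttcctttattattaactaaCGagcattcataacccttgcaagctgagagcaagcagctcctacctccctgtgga
Kcnj4: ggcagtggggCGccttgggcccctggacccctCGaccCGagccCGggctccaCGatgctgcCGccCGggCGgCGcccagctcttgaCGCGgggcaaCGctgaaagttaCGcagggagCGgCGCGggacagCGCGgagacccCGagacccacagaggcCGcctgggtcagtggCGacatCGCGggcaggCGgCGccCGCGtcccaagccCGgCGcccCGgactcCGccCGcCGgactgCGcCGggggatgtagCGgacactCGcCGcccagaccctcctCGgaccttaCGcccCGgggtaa
Kcna6: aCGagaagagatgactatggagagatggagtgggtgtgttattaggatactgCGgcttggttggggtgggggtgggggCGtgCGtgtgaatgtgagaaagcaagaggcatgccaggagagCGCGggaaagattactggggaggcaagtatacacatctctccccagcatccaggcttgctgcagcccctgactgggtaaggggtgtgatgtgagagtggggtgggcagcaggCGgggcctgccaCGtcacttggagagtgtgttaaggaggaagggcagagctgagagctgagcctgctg

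The windows differ in CG content. That of Kcnj4 holds 41 CG, and 3.33% of all 27025 windows hold as many or more. Kcnj10 has 21, which 25% of windows reach, Kcna6 has 8, which 49.1% reach, and Kcnj16 has 3, which 76.1% reach. Over the 54 of 78 channel genes with a listed window the count ran from 1 to 49 with a median of 11.5, against a median of 7 over all windows. No methylation was measured in these samples, and a CG in the sequence does not say whether it is methylated. The windows of Kcnj10 and Kcnj16 hold unlike numbers of CG, but that of Kcnj16 is only the most upstream of 4 listed starts. Whether CG content has a part in the levels of these genes was not tested.

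The genotypes were then compared within each set of prefixes. In the 8 animals of prefixes 046, 047, 048 and 139 alone, 0 of all genes (0%) and 0 of the channel genes passed by edgeR. At an unadjusted p under 0.05 there were 6 of 76, or 7.89%, against 4.4% of all genes (this fit tested Kcnmb1 and not Kcnj14). In the 6 animals of prefixes 119 and 141 alone, 27 of 76 passed, or 35.5%, against 2304 genes or 16.6% of all. Of the 27, 23 were higher in heterozygotes, where 8.88% of all genes passed upward, and 4 were lower, where 7.72% did. A fit of all 14 animals with a separate genotype term for prefixes 119 and 141 called only 3 of these, Kcna1, Kcna6 and Kcnh1. Its share of all genes called is not given here. The count of 27 thus holds for the fit of the 6 animals alone. Without 1 of the 6 animals it lay between 14 (without heterozygous replicate 7) and 31 (without heterozygous replicate 5), and without wild type replicate 6 it was 17. The call held without each animal in turn for 11 genes: Kcna1, Kcna2, Kcna6, Kcnb2, Kcnf1, Kcnh1, Kcnh7 and Kcnj3, all higher, and Kcnj16, Kcnj10 and Kcnab2, all lower. These are not 6 separate checks, and the share of all genes called without each animal is not given here. Without either animal of prefix 119 the sex term takes up the other, so both fits estimate genotype from the animals of prefix 141.

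By class, 16 of 36 voltage-gated genes passed upward in these 6 animals and 1, Kcnh3, downward. The median log2 fold change of the class was 0.20 in prefixes 119 and 141 and -0.030 in the others, from a fit of all 14 animals. Of 13 inward rectifiers, 4 were higher (Kcnj3, Kcnj4, Kcnj11 and Kcnj12) and 2 lower (Kcnj10 and Kcnj16). Of 11 auxiliary subunits 2 were higher, Kcnab1 and Kcnip4, and Kcnab2 was lower. Kcnma1 was higher, and 0 of 9 two-pore-domain genes passed. Over all 76 genes the median was 0.11 in prefixes 119 and 141 with 50 positive, and -0.0077 in the others with 35 positive. Over all genes tested the medians were -0.00040 and 0.00083.

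**Figure D3:**
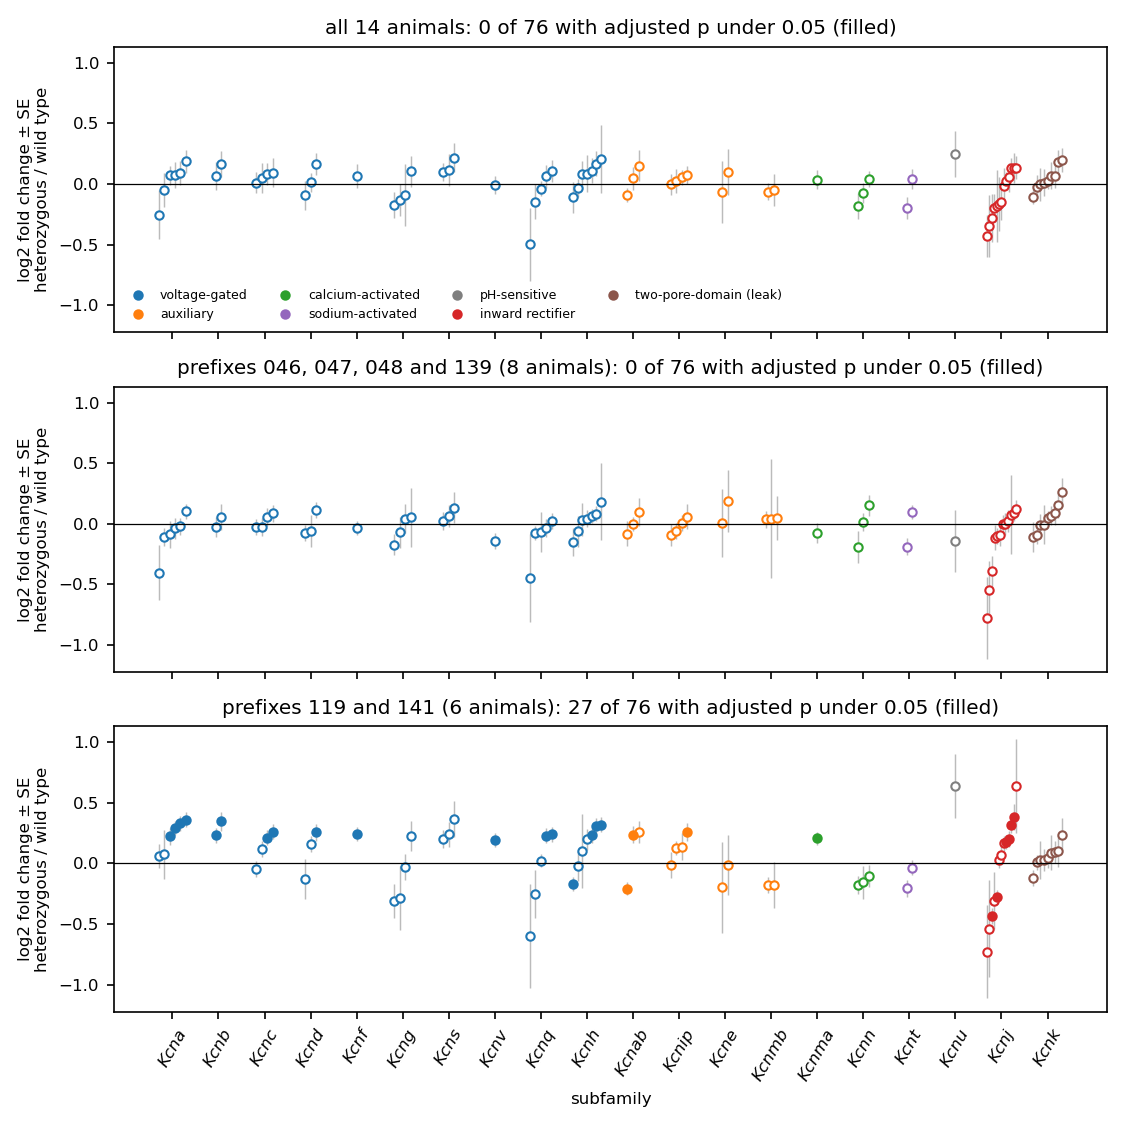
Log2 fold change of heterozygous over wild-type animals for each tested gene, ordered within its subfamily by value, with bars for the standard error and colour for the class; filled points passed an adjusted p of 0.05 by edgeR. Filled points appear only in the lowest panel, the 6 animals of prefixes 119 and 141, where 23 lie above 0 and 4 below; a fit of all 14 animals called 3 of these 27.

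Kcna1, the Kv1.1 subunit whose loss causes seizures in mice, had 318, 365 and 419 CPM in the 3 wild-type animals of prefixes 119 and 141. The 3 heterozygotes had 436, 485 and 488 CPM, all above every wild type of these prefixes. In these prefixes edgeR gave a log2 fold change of 0.36 (SE 0.0632) with an adjusted p of 0.000246. In the other prefixes, the wild types had 419.9, 525, 527 and 536.5 CPM and the heterozygotes 429, 449, 470.5 and 514 CPM. There the ranges overlapped, and the wild-type animals of 119 and 141 were the low group of all 4.

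Kcna6 had 131, 136 and 137 CPM in wild-type and 155, 171 and 182 CPM in heterozygous animals of prefixes 119 and 141. Its log2 fold change there was 0.33 (SE 0.0607, adjusted p = 0.000311 by edgeR). In the other prefixes it had 166, 175, 186 and 193 CPM in wild types and 178, 191, 195 and 208 CPM in heterozygotes, with overlap. Kcna2 was at 0.29 and Kcna4 at 0.22 in the 6 animals, so that 4 of the 6 Kv1 genes were higher. The EAG gene Kcnh1 had 124, 138 and 169.9 CPM in the wild types and 162, 180.1 and 193 CPM in the heterozygotes, with 0.32 (SE 0.0621). The ERG gene Kcnh7 was at 0.31, Kcnb2 at 0.35 and the silent subunit Kcnf1 at 0.25. Kcnd2 had 0.26, Kcnc1 0.21 and Kcnma1 0.21, and these calls were lost without at least 1 of the 6 animals.

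Kcnj16 went the other way. It had 47.6, 61.5 and 63.4 CPM in the wild-type animals of prefixes 119 and 141 and 34.0, 46.4 and 47.1 CPM in the heterozygotes, without overlap. Here edgeR gave -0.43 on the log2 scale (SE 0.0682) and an adjusted p of 6.76e-05, the smallest of the 76. Kcnj10 had 350.2, 496 and 515 CPM against 309.5, 402 and 402 CPM, with -0.28 (SE 0.0553, adjusted p = 0.000744 by edgeR). The ranges overlapped, but within prefix 119 and within prefix 141 both genes were lower in every heterozygote than in every wild type. In the fit of all 14 animals Kcnj16 had an adjusted p of 0.0584 and Kcnj10 of 0.192 by edgeR. Kcnab2 had 482, 484.5 and 493 CPM against 419.7, 420.3 and 420.4 CPM, with -0.21.

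**Figure D4:**
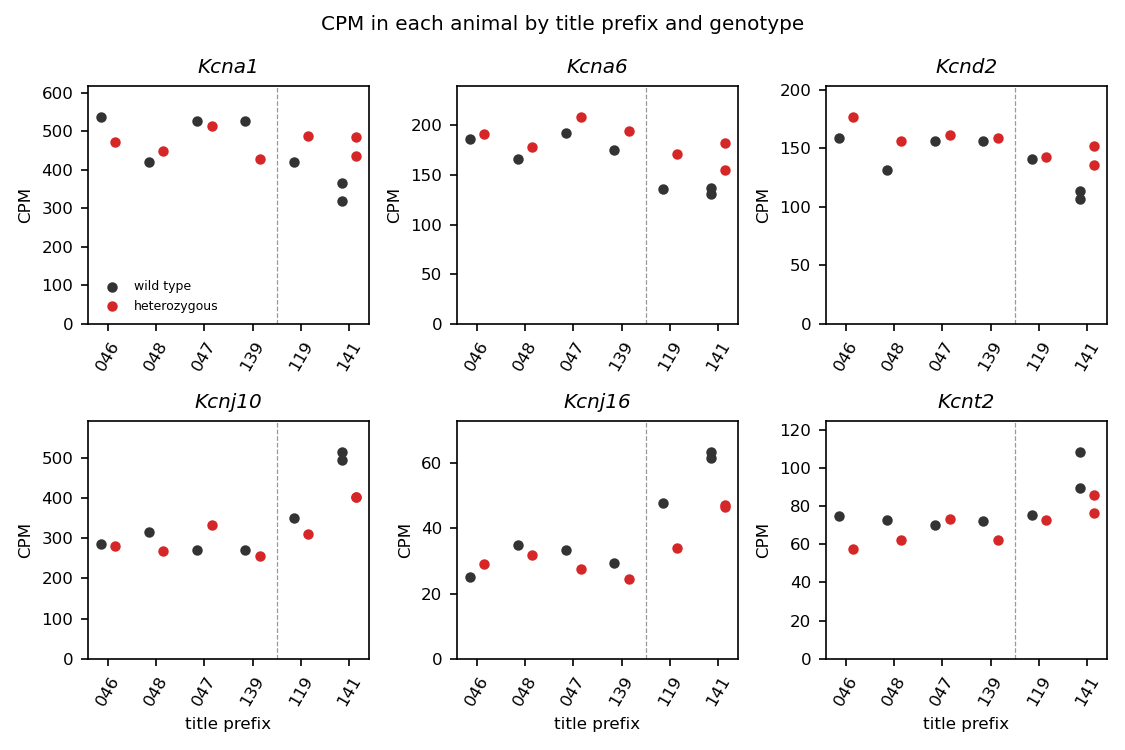
Level of 6 channel genes in each animal in CPM, by title prefix, with wild types in black and heterozygotes in red; the dashed line separates prefixes 119 and 141 on the right. Right of the line every heterozygote lies above every wild type for Kcna1 and Kcna6, and below for Kcnj16. There Kcnd2 passed as higher and Kcnj10 as lower in heterozygotes, both with overlapping ranges. Kcnt2 did not pass there (adjusted p = 0.0523 by edgeR).

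Other measures differed between the genotypes in the same 6 animals. Mitochondrial transcripts took 1.51 to 1.99% of counts in the wild types and 1.11 to 1.56% in the heterozygotes, and the channel genes 0.584 to 0.647% and 0.630 to 0.678%. All 16 astrocyte markers were lower in these heterozygotes, with summed levels of 14600 to 19550 CPM in wild types and 13610 to 15730 CPM in heterozygotes. Parvalbumin interneuron markers summed to 404 to 513 CPM in wild types and 485 to 545 CPM in heterozygotes, where 3 of the 9 passed upward and 0 downward. In the fit of all 14 animals 6 of the 9 were positive there. In the other prefixes astrocyte markers summed to 10680 to 11820 and 10310 to 11310 CPM. In the 6 animals alone, 7 of 15 immediate early genes, 6 of 14 oligodendrocyte and 4 of 10 deep-layer markers passed upward. Downward 0, 2 and 0 of these passed, and of 11 microglia markers 4 passed downward and 0 upward. Upper-layer and oligodendrocyte precursor markers had 1 each upward, and endothelial and striatal markers 1 each downward. Of all genes, 8.88% passed upward and 7.72% downward. The part of these measures in the changes of the channel genes was not tested.

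Ranges of the genotypes that do not overlap are frequent between groups of 3. In prefixes 119 and 141 they were found for 20 of 76 channel genes, or 26.3%, and for 22.1% of all genes. In the other prefixes, with 4 against 4, they were found for 1 gene, Kcnk10, or 1.32%, and for 2.92% of all genes. These shares of the channel genes lie near those of all genes.

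The difference of the genotype change between the 2 sets of prefixes was tested itself. With sex, set and genotype as terms, 0 of all genes (0%) and 0 of the 76 passed by edgeR, and at an unadjusted p under 0.05 there were 21 of the 76, or 27.6%, against 14.7% of all genes. DESeq2 called 2, Kcna1 and Kcnv1. With the title prefix as a block, 8 of 76 passed by edgeR, or 10.5%, against 767 genes or 5.55% of all. All 8 were more positive in prefixes 119 and 141, where 2.84% of all genes passed in that direction. They were Kcna1 (difference 0.47, adjusted p = 0.00568), Kcnj3 (0.41, 0.0159), Kcnj2 (0.44, 0.0168), Kcnv1 (0.33, 0.0234), Kcnf1 (0.28, 0.0342), Kcna2 (0.32, 0.0345), Kcnj4 (0.28, 0.0406) and Kcnma1 (0.28, 0.0408). Without the block, leaving out 1 animal gave 0 to 9 such genes, with 6 without wild type replicate 4 and 9 without wild type replicate 5. For these fits and for DESeq2 the share of all genes called is not given here. Kcnj2 differs from the others in that its change lay in the other prefixes, where it was -0.39 with an adjusted p of 0.951 by edgeR.

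Related genes outside the name rule were read beside the channels, from lists chosen with earlier results known. None of 8 genes that cluster Kv1 channels at axons, 10 auxiliary genes of other names and 12 potassium transport genes differed by genotype over all animals. Between prefixes, where 33.2% of all genes passed, 6 of the 8 clustering genes did (75%), 5 of the 10 auxiliary genes (50%) and 8 of the 12 transport genes (66.7%). Cntn2 (-0.33), Cntnap2 (-0.25), Adam22 (-0.29) and Adam23 (-0.42) were lower in 119 and 141, and the scaffold genes Dlg1 (0.26) and Dlg2 (0.50) were higher. Of the auxiliary genes 4 were lower, among them Dpp6, a Kv4 partner (-0.27), Amigo1, a Kv2 partner (-0.34), and Abcc8, the sulfonylurea receptor (-0.62), and Fmr1, whose protein binds sodium-activated and BK channel complexes, was higher. Of the transport genes 5 were lower, among them the potassium chloride cotransporter Slc12a5 (-0.50), and 3 were higher, among them the sodium pump beta subunits Atp1b2 (0.26) and Atp1b3 (0.25). In the 6 animals of prefixes 119 and 141 alone, 5 clustering genes were higher and 2 lower in heterozygotes, 3 auxiliary genes were higher and 0 lower, and 5 transport genes were higher and 1 lower, where 8.88% of all genes passed upward and 7.72% downward.

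Gene length varies within the channel genes. By genotype, the median log2 fold change over all animals was 0.050 for the 22 channel genes that span over 100 kb, 0.025 for the 54 shorter ones and 0.015 for all 2212 genes of such length. In prefixes 119 and 141 the medians were 0.21 and 0.061 for the channel genes and 0.041 for all long genes. In the 6 animals alone, 12 of the 22 long channel genes passed upward and 0 downward, and of the 54 shorter ones 11 upward and 4 downward. Over all genes, 384 of 2210 long ones passed upward and 160 downward, and of 11335 shorter ones 834 upward and 886 downward.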

How the data were processed

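The authors deposited 1 table of whole-number counts per gene symbol for 14 animals, with no normalization. It also holds the authors' own genotype comparison as a log2 fold change, a test score, a p-value and its adjusted form. The submitters' processing notes list Trim Galore, Bowtie, STAR, bedtools and mm9, and no versions or roles are given in the sources used here. Per the labels' protocols the library kit was directional, although the molecule field says genomic DNA.

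Tests used edgeR 4.0.16 in R 4.3.3: filterByExpr by genotype, TMM factors, the robust quasi-likelihood F test, and Benjamini-Hochberg adjustment over all genes with a threshold of 0.05. Genotype was tested with sex as a term, and prefixes jointly with genotype as a term. Alternatives were DESeq2 1.42.0, other size factors, no filter, the prefix block, either set of prefixes alone, and each animal left out. On simulated counts with 1.5-fold changes the genotype fit recovered 81% of 100 changed genes, of which 98 were tested, and the prefix fit 58% of 100. Fold changes are heterozygous over wild type, with SE from the F statistic. RPKM used exon lengths of GENCODE M21 (GRCm38, another build than the counts), matched by symbol for all 78 genes.

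Deviations of the 9 pairs of animals with the same prefix and unlike genotype correlated at 0.2 to 0.517. This met the rule used for a block (above 0.1 in every pair), and the block stands beside the results it changes. Pairs of unlike prefix were not compared, so the correlations cannot tell pairing by prefix from a shared sex or set of prefixes. Animals of a prefix also share sex.

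The genes, gene lists and sets of prefixes were chosen with earlier results of these data known. Genes are named where they passed a test (between prefixes, the 6 smallest p in each direction), had 1 of the 5 smallest p values by genotype in either direction, led their subfamily, were listed by role, or lay next to the count limit. Others are named where a count is spelled out, after their values were seen. Some genes of the lists are not reported here by name.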

Additional observations from a re-analysis of the deposited data

Results flagged for a closer look

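Single animals stood apart in 3 of the 86 groups of 7 animals examined, and chance alone marks about 1 in 20 such groups. Kcnc2, a Kv3 gene, was at 207.9 CPM in heterozygous replicate 4, against 163.2 to 181.8 CPM in the other 6 heterozygotes. Kcnj2, an inward rectifier, was at 50.9 CPM in heterozygous replicate 5, against 30.7 to 37.8 CPM in the others. Kcnu1 was at 2.28 CPM in wild type replicate 2, against 1.53 to 1.65 CPM in the others.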

How the results depend on the processing

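A single genotype term gave 0 channel genes in every setting with all 14 animals, the replicate block included, and without any 1 animal. The 6 animals of prefixes 119 and 141 alone gave 27, and the other 8 gave 0. The count between prefixes was 39 with other size factors and with DESeq2, 45 without the filter and 34 to 42 without 1 animal, but 0 within the 8 animals of the other prefixes alone, a setting added after the data were seen. The count of genes whose genotype change differed between the sets was 0, and became 8 with the title prefix as a block, 4 without the filter, 2 by DESeq2 and 0 to 9 without 1 animal. The count within prefixes 119 and 141 was 27 with other size factors, 30 without the filter, 22 by DESeq2, 14 to 31 without 1 animal and 3 in a fit of all 14 animals. These settings were also added after the data were seen. Channel counts from changed settings, here and above, mostly stand without the share of all genes called in that setting. They show how far the channel calls move with the setting, not whether other genes move alike. The log2 fold change of Kcnj2 by genotype, -0.20 over all animals, was 0.068 in the 6 animals of prefixes 119 and 141 alone; the cause was not tested. The genotype and sex interaction gave 0 channel genes in every setting run, the replicate block included. In simulated counts 1.5-fold changes by genotype were recovered in 81% of genes, and smaller ones were not simulated. That simulation had independent animals, no prefix differences and many genes changed at once, so the 81% need not hold for these data. Kcnj14 had 150 reads over all animals, so counting error limits genes of that level.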
